A study of Mus musculus with 2 samples.

Results

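Sd3 is one of the clusters of round spermatids in a set of single testis cells from wild-type (WT) and Tex13a knockout (KO) mice, sequenced to follow the transcriptome through spermatogenesis. Its members were the cells that the authors' cell table assigns to the cluster Sd3, and they were kept apart by library. There were 1207 such cells of 12408 in all, of which 504 came from the WT library and 703 from the KO library. Both groups were adult mice, labelled C57BL/6 and named C57BL/6N in the study's methods, and whole testes had been digested with collagenase I. Tex13a, an X-linked testis gene, was deleted over all its reading frames in the KO animals with CRISPR/Cas9, and the WT animals carried no deletion. For each genotype 3 testes of 3 mice were pooled before the cells were captured, so that there was 1 library per genotype, no replicate, and no test. Genotype and library cannot be told apart, and every interval in the text is a 95% interval for counting error only.

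Round spermatids are the haploid cells that follow the meiotic divisions. While their nucleus is still round and active in transcription, they build the acrosome from Golgi vesicles over one pole of the nucleus and grow the axoneme of the future tail. The later elongating spermatids replace histones with transition proteins and protamines, assemble the fibrous sheath and outer dense fibres, and shut down transcription. The sex chromosomes are silenced during meiosis and regain some activity in spermatids.

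Sd3 made up 9.75% of the WT library (exact binomial interval 8.95 to 10.6) and 9.71% of the KO library (9.04 to 10.4). The cells held 4919774 UMIs (unique molecular identifiers, counted as single transcripts) in WT and 7668479 in KO, with medians of 7179 and 7625 UMIs per cell. No cell barcode occurred in both libraries. After each cell was thinned to 3000 UMIs, which left out no cell, a Sd3 cell had a median of 1682 genes in WT and 1690 in KO. This was more than in Sd2 (1626 and 1634) and in Sd4 (1640 and 1626.5), and more than in any of the other 12 clusters of the same library. The median share of mitochondrial UMIs per cell was 0.256% in WT and 0.351% in KO, between that of Sd2 (0.439% and 0.514%) and that of Sd4 (0.14% and 0.191%).

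For each cluster the UMIs of a library were added up and expressed as CPM, the level of a gene scaled so that all genes of a cluster add up to the same total. A ratio of 2 clusters is given on the log2 scale with a prior of 1 UMI. Genes with at least 50 UMIs over both clusters in each library were read. A gene was counted as 2-fold higher or lower only where both libraries passed that ratio. Since the clusters were drawn by the authors from the same counts, the differences between clusters are a description of Sd3 and no finding that could be tested. Across the 4973 genes read in all clusters, the log2 CPM of Sd3 had the closest likeness to Sd2 (Pearson r = 0.93 in WT and 0.935 in KO), followed by Sd4 (0.877 and 0.867) and Sd1 (0.771 and 0.770). These r are across genes, which share library and depth.

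The label of the cluster was checked against marker lists. Of the 16 round spermatid markers with a usable row, none was at 0 in Sd3. Their summed level was 8905 CPM in WT and 8779 CPM in KO, against 5545 and 5421 CPM in Sd2, 10276 and 9768 CPM in Sd4 and 805 and 756 CPM in the spermatogonia of the cluster Sg. The markers of the label were thus present in both libraries. Tex36, one of the spermatid markers used in the study, had 762 CPM in WT (738 to 787) and 720 CPM in KO (701 to 739) in Sd3. It was found in 98.6% of WT and 98.0% of KO cells of Sd3, against 76.6% and 72.2% in Sd2. In Sg, where it should be absent, it was found in 11.4% and 9.90% of cells at medians of 6133 and 5859 UMIs.

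Markers of other cells were few. The 4 readable Sertoli cell genes summed to 22.2 CPM in WT and 6.65 CPM in KO, the 3 Leydig cell genes to 6.91 and 8.48 CPM, the 3 peritubular genes to 1.02 and 0.391 CPM, the 4 macrophage genes to 3.66 and 2.22 CPM, and the 5 spermatogonial genes to 31.7 and 26.3 CPM. No endothelial marker could be read. The red blood cell genes summed to 24.2 CPM in WT and 5.48 CPM in KO. In Sd3 of both libraries 1 of the 4 macrophage genes (Cd68) and 1 of the 3 peritubular genes were at 0.

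Against Sd2, Sd3 had 720 genes of 4202 that were at least 2-fold higher in both libraries, 17.1% of the genes read. The reverse, 2-fold lower, was found for 211 genes or 5.02%, a count that was 126 with at least 200 UMIs and 325 without a minimum. The largest ratios belonged to transcripts near their floor in Sd2 that continued upward into Sd4. The median log2 ratio of all genes was -0.16 in WT and -0.17 in KO, so the typical gene was slightly lower in Sd3, and list medians are to be read against that shift. Across genes the ratios of the 2 libraries had r = 0.956.

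BC048562, an uncharacterised protein-coding gene on chromosome 9, had the largest ratio of Sd3 to Sd2 by the library with the smaller value. It had 5.84, 76.2 and 263 CPM in Sd2, Sd3 and Sd4 of WT, and 4.08, 79.3 and 256 CPM in KO. The level in Sd3 was 12.8 times that in Sd2 in WT and 19.1 times in KO. A UMI of it was found in 41.1% of WT and 41.4% of KO cells of Sd3, but in 4.05% and 2.38% of Sd2 cells and 7.31% and 10.4% of Sg cells, so the share in Sd2 did not exceed that in Sg. Tubb6, a beta-tubulin, had 8.04, 137 and 258 CPM in Sd2, Sd3 and Sd4 of WT and 9.57, 121 and 233 CPM in KO. It was found in 58.3% and 53.2% of Sd3 cells and in 5.30% and 5.43% of Sd2 cells. Both genes separated Sd3 from Sd2 in nearly the same way in each library.

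Dscc1, a subunit of the clamp loader for sister chromatid cohesion, had 117 CPM in WT and 111 CPM in KO in Sd3, against 9.13 and 11.5 CPM in Sd2 and 205 and 170 CPM in Sd4. The other genes of this group were Ccdc27, which had 52.2 and 40.7 CPM in Sd3, and 6 transcripts known by clone names. The most abundant of those, 4930432E11Rik, had 367 and 355 CPM in Sd3 against 27.4 and 29.8 CPM in Sd2. All 10 genes were higher still in Sd4 than in Sd3, and none of them had its highest level of the 13 clusters in Sd3.

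Of the 10 transcripts lowest in Sd3 relative to Sd2, 6 had their highest level of the 13 clusters in the spermatocytes of Sc2, 3 in Sd1 and 1 in Sg. Cd320, the receptor for transcobalamin, had 273, 53.1 and 20.3 CPM in Sd2, Sd3 and Sd4 of WT and 270, 54.6 and 23.1 CPM in KO. In Sd3 it was thus 5.13 times lower in WT and 4.94 times lower in KO than in Sd2. Diablo, which counters inhibitors of apoptosis, had 58.5 and 54.0 CPM in Sd3 against 256 CPM in Sd2 of both libraries. Pabpc6, a retroposed poly(A)-binding protein gene, had 383 CPM in WT (366 to 400) and 452 CPM in KO (437 to 467) against 1630 and 1746 CPM in Sd2. These 3 genes were lower again in Sd4.

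Zmynd10, a factor for the assembly of axonemal dynein, had 42.5 and 44.1 CPM in Sd3 against 186 and 169 CPM in Sd2. The glucose transporter Slc2a3 had 8.54 and 11.5 CPM against 43.5 and 44.3 CPM. The mitochondrially encoded complex I subunit mt-Nd1 had 183 and 188 CPM against 775 and 706 CPM. Eif1b differed from the rest of the group, since its level in Sd4 (82.6 and 94.1 CPM) was above that in Sd3 (49.6 and 39.5 CPM). The remaining members were Nudt16l1, Glipr1l2 and Jagn1, at 4.47 to 22.6 CPM in Sd3.

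**Figure D1:**
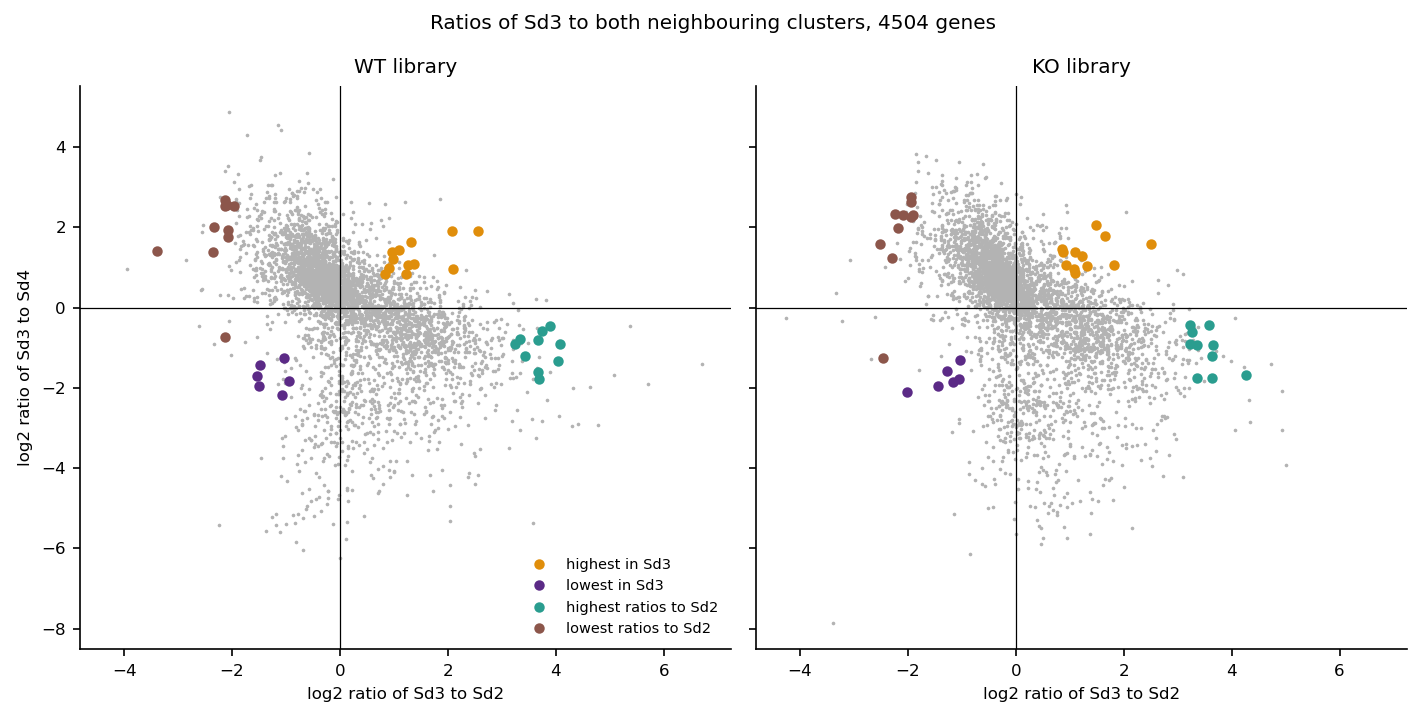
Log2 ratio of Sd3 to Sd2 (horizontal axis) and to Sd4 (vertical axis) in the WT and the KO library for 4504 genes with at least 50 UMIs over the 3 clusters in each library (grey points). Coloured points are the named groups: the 12 genes highest in Sd3 lie at the upper right, the 6 lowest at the lower left, and the 10 with the highest ratios to Sd2 lie below 0 on the vertical axis in both libraries.

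The step from Sd3 to Sd4 was larger than that from Sd2 to Sd3. The median absolute log2 ratio was 0.74 in WT and 0.80 in KO against Sd4, and 0.50 and 0.49 against Sd2. Of 4351 genes read, 717 were 2-fold higher in Sd3 than in Sd4 in both libraries (16.5%) and 714 were 2-fold lower (16.4%). With the all-gene median subtracted, these counts were 386 and 990. The median log2 ratio of all genes was 0.38 in WT and 0.42 in KO, and r across genes between the libraries was 0.978.

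Among the genes higher in Sd3 than in Sd4, Hspa5 stood at the top. It encodes BiP, the main Hsp70 chaperone of the endoplasmic reticulum. It had 975, 353 and 26.3 CPM in Sd2, Sd3 and Sd4 of WT and 1185, 425 and 33.2 CPM in KO, so that Sd3 was 13.4 times above Sd4 in WT and 12.7 times in KO. The share of cells with a Hspa5 UMI was 75.4% and 82.6% in Sd3, and 19.0% and 21.2% in Sd4. Spag1, a dynein assembly factor, had 132 and 153 CPM in Sd3 against 14.8 and 15.5 CPM in Sd4. Sirt3, a mitochondrial deacetylase, had 38.8 and 47.7 CPM against 4.57 and 5.01 CPM.

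The other genes of this group were mt-Nd4, Chgb, Arl14ep, Stmn1, Wdr66, Cabcoco1 and Ccdc39, and all of them were higher in Sd2 than in Sd3. Ccdc39, which sets the repeat length of the axoneme, had 649, 337 and 43.4 CPM in the 3 clusters of WT and 801, 421 and 50.8 CPM in KO. Wdr66, an axonemal protein gene, had 294 and 326 CPM in Sd3 and 37.4 and 34.9 CPM in Sd4. The stathmin gene Stmn1 had 86.4 and 80.1 CPM in Sd3 against 10.3 and 9.86 CPM in Sd4. None of the 10 had its highest level in Sd3.

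Genes lowest in Sd3 relative to Sd4 were practically absent from Sd3. Hemgn had 19 UMIs in WT and 50 in KO in Sd3 (3.86 and 6.52 CPM), against 226 and 258 CPM in Sd4. A UMI of it was found in 2.18% and 4.13% of Sd3 cells, below the share in Sg (11.4% and 6.44%), and in 56.5% and 66.5% of Sd4 cells. In Sd3 Hemgn was thus at background, and it marked the border to Sd4. Tmco5b, a gene of a transmembrane protein of spermatids, had 1.83 and 3.78 CPM in Sd3 against 147 and 191 CPM in Sd4. Gm13324, annotated as an antisense RNA, had 2 and 4 UMIs in Sd3 and 27.8 and 35.1 CPM in Sd4. The counting was not stated to use strand, so its reads and those of the gene on the other strand cannot be told apart. The others, Gm31224, 1190005I06Rik, Gm37406, Fam71a, Cntn1, 1700065J18Rik and Phgdh-ps1, had between 0.407 and 6.91 CPM in Sd3 and between 33.6 and 267 CPM in Sd4.

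Few genes were peculiar to Sd3 among the 3 clusters. Only 158 of 4504 genes (3.51%) were at least 25% above both Sd2 and Sd4 in both libraries, and 63 (1.4%) were at least 20% below both. By the same margins, 777 genes (17.3%) lay on a rising course from Sd2 over Sd3 to Sd4 and 1079 (24%) on a falling one. With the all-gene median subtracted from each ratio, 85 genes were highest in Sd3.

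Cytl1, the gene of a small secreted cytokine-like protein on chromosome 5 (37735519 to 37739820 on the plus strand, GRCm38), led this group when genes were ranked by the smallest of their 4 ratios. It had 12.4, 52.4 and 13.9 CPM in Sd2, Sd3 and Sd4 of WT and 13.5, 42.4 and 12.2 CPM in KO. The intervals of Sd3 were 46.2 to 59.2 CPM in WT and 37.9 to 47.2 CPM in KO, and did not overlap those of the neighbours. A Cytl1 UMI was found in 33.3% of WT (29.2 to 37.6) and 32.9% of KO cells of Sd3 (29.4 to 36.5). In Sd2 it was found in 7.79% and 9.51% of cells and in Sd4 in 12.7% and 11.3%, while in Sg it was 1.37% and 0.990%. With cells thinned to 3000 UMIs the Sd3 share was 13.1% in both libraries, still above Sd2 (2.80% and 4.41%) and Sd4 (4.49% and 2.69%).

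Ces5a, a carboxylesterase known for its abundance in the epididymis, had 4.02, 24.2 and 6.39 CPM in Sd2, Sd3 and Sd4 of WT and 5.14, 29.3 and 9.86 CPM in KO. It was found in 18.1% and 23.5% of Sd3 cells and in 0.457% and 0.495% of Sg cells. Smco4, a small membrane protein gene, had 101, 252 and 80.6 CPM in WT and 90.2, 254 and 61.3 CPM in KO. It was found in 80.6% and 79.8% of Sd3 cells, but also in 32.4% and 22.3% of Sg cells. Lurap1, an adaptor protein gene, had 42.7, 182 and 94.3 CPM in WT and 46.4, 163 and 78.5 CPM in KO, and was at 6.70 CPM in Sg of WT. For all of these genes Sd3 was also the highest of the 13 clusters in both libraries.

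Gnpda2, an enzyme that converts glucosamine-6-phosphate to fructose-6-phosphate, was the most abundant of the group. It had 219, 427 and 164 CPM in WT and 221, 397 and 144 CPM in KO, and was found in 91.9% and 92% of Sd3 cells. Zdhhc11, of the palmitoyltransferase family, had 186 and 179 CPM in Sd3 against 93.9 and 83.8 CPM in Sd2 and 80.8 and 68.2 CPM in Sd4. The mitochondrial electron transfer flavoprotein subunit Etfb had 81.9 and 68.2 CPM in Sd3. Also highest in Sd3 were Ubald2, Pibf1 and Gm4746, with 89.4 and 73.3 CPM, 104 and 122 CPM, and 24.2 and 22.7 CPM.

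Tex15 was the exception among the 12. This gene of meiotic recombination and transposon silencing had 114, 276 and 133 CPM in Sd2, Sd3 and Sd4 of WT and 134, 311 and 127 CPM in KO. Its highest level of the 13 clusters was in the spermatocytes of Sc1 in both libraries. In Sg it had 375 CPM in WT. The course of Tex15 therefore had 2 maxima, the smaller one in Sd3.

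**Figure D2:**
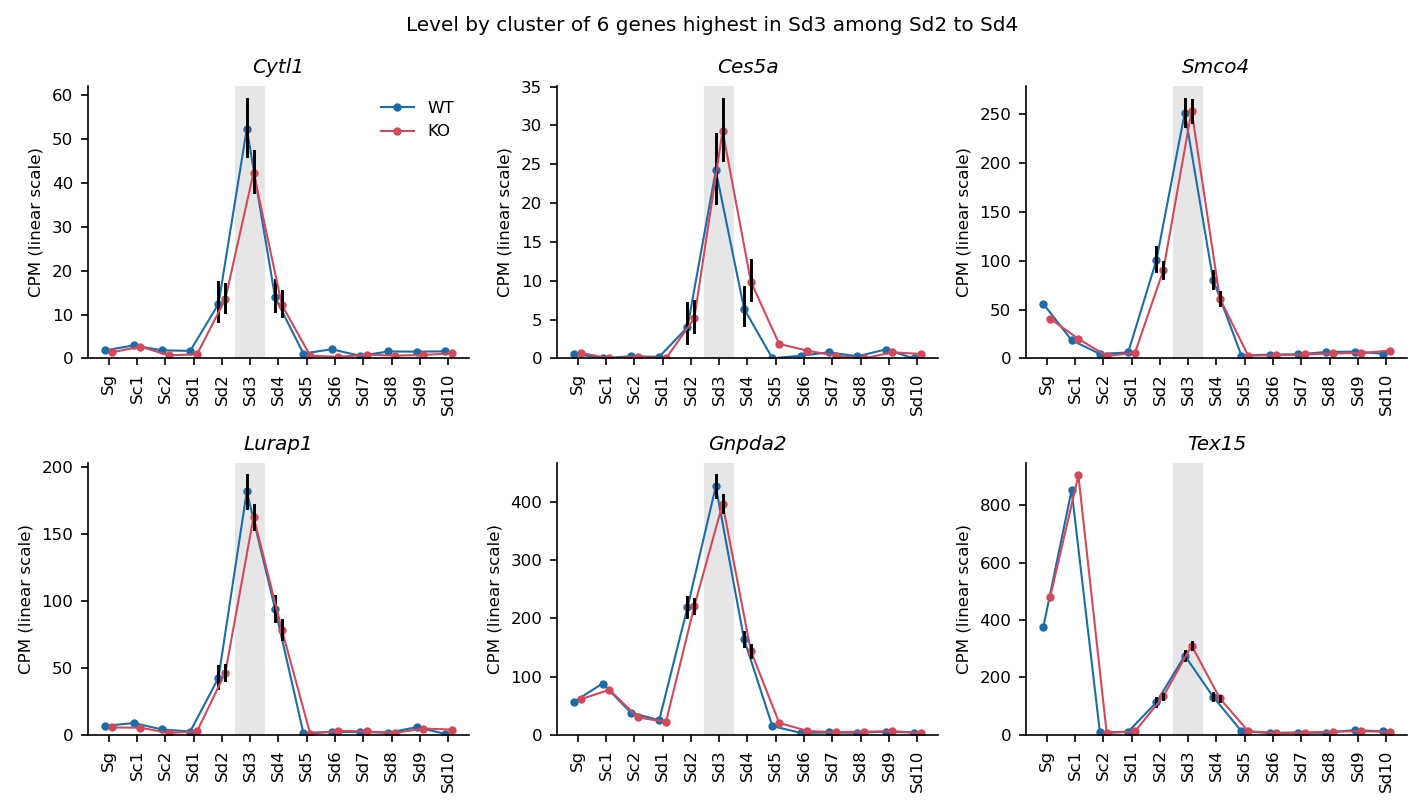
Level in CPM (vertical axis, linear scale from 0) in each of the 13 clusters (horizontal axis) for Cytl1, Ces5a, Smco4, Lurap1, Gnpda2 and Tex15 in the WT (blue) and KO (red) library. Black bars are exact Poisson 95% intervals in Sd2 to Sd4 and the grey band marks Sd3, where the first 5 genes had their maximum (52.4 CPM in WT and 42.4 CPM in KO for Cytl1), while Tex15 was higher in Sc1.

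The genes lowest in Sd3 were of low abundance. Os9, a lectin of endoplasmic reticulum-associated degradation, had 18.6, 6.30 and 20.8 CPM in Sd2, Sd3 and Sd4 of WT and 23.0, 5.61 and 24.2 CPM in KO. Pcnt, the centrosomal scaffold pericentrin, had 18.6, 6.50 and 25.6 CPM in WT and 19.0, 6.91 and 26.9 CPM in KO. Pcnt was found in 5.75% and 7.11% of Sd3 cells and in 35.6% and 39.6% of Sg cells. Rassf1, Mrgbp and Pxk were at 3.91 to 8.74 CPM in Sd3. Cnbp, a nucleic acid binding protein, was the most abundant of the 6, with 34.6 and 35.6 CPM in Sd3 against 71.2 and 73.5 CPM in Sd2 and 82.4 and 88.2 CPM in Sd4.

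Over all 13 clusters, 328 of 4973 genes (6.6%) had their highest level in Sd3 in both libraries, against 189 genes in Sd2 and 407 in Sd4. The promoters of 4 of the 10 most abundant are shown, picked because they hold the motifs marked, to let a reader see the sequences upstream of genes that peak in round spermatids, where factors of the CREB and CREM family and of the RFX family are known regulators. The sequences run from 250 bases before to 50 bases after the annotated start, are from RefSeq (GRCm38.p6), and carry in capitals the motifs TGACG (the core of the cAMP response element TGACGTCA) and GTTGCC (one arm of the sequence bound by RFX factors) on either strand. Ccdc173, a microtubule inner protein of the axoneme, holds the full element TGACGTCA from position -96, counted from the start. Enkur and the tektin gene Tekt2 encode axonemal proteins, and Ccdc175 a coiled-coil protein.
Ccdc173 promoter, chr2:69789437-69789736, minus strand: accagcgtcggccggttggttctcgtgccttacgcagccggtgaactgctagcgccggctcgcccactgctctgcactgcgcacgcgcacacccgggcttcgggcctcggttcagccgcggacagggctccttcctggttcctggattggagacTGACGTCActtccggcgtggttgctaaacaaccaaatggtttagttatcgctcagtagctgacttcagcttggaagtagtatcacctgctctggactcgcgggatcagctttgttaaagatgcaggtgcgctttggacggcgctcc
Enkur promoter, chr2:21205316-21205615, minus strand: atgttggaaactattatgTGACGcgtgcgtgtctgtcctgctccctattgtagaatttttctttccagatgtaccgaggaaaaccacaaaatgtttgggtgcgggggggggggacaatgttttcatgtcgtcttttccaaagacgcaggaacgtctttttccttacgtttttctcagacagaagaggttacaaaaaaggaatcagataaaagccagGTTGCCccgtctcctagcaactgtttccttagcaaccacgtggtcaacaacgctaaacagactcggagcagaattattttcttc
Ccdc175 promoter, chr12:72184980-72185279, minus strand: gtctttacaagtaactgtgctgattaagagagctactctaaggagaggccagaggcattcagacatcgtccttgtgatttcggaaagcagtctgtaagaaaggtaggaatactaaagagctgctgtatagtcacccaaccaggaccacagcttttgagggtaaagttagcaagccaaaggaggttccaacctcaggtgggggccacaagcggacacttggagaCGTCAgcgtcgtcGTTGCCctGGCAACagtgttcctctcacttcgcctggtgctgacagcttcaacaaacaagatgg
Tekt2 promoter, chr4:126325639-126325938, minus strand: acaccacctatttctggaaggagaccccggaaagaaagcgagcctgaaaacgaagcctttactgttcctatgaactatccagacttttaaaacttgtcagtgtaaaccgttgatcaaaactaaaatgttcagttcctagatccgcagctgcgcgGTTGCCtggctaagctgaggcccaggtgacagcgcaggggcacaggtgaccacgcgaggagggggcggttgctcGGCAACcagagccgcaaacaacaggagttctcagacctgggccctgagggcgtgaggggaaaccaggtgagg
In Enkur, TGACG began at position -232 and GTTGCC at -34. In Ccdc175, GTTGCC began at -14 and its reverse complement at -6, and the reverse complement of TGACG began at -27. In Tekt2, shown by the first of its 3 promoters in the table, GTTGCC began at -96 and its reverse complement at -22. The second Tekt2 promoter holds the same sites at -138 and -64 from its own start, and the third holds neither motif. Of the other 5 with a promoter in the table, Mpc2 holds GTTGCC at -131 and Fsip2 the reverse complement of TGACG at -120, while the promoters of Dnajc15, Pdcd5 and Cep290 hold neither. All positions are in the direction of the gene.

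Of the 328 genes, 231 had at least 1 promoter in the table, 298 promoters in all. GTTGCC on either strand was in 72 of them (24.2%), against 15.4% of the 4305 promoters of genes read in the 3 clusters and 12.5% of all 32851 promoters of the same length. It was in 13.7% of promoters of genes 2-fold lower in Sd3 than in Sd2 and in 15.7% of those 2-fold lower in Sd3 than in Sd4. TGACG was in 30.5%, 31.8% and 20.8% of the same first 3 sets, and its longer form TGACGTCA, which contains it, in 3.36%, 3.58% and 1.79%. AACAAT, found in SOX sites, was in 10.1% against 8.25% and 10.7%, and TATAAA in 10.4% against 8.32% and 13.6%. Promoters of 1 gene can overlap, and a match of letters is not a bound site.

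In Sd3 Ccdc173 had 1383 CPM in WT (1351 to 1417) and 1404 CPM in KO (1377 to 1430). It had 1305 and 1261 CPM in Sd2 and 829 and 731 CPM in Sd4, so that Sd3 and Sd2 were close and Sd4 was lower. Enkur had the same shape, with 1109 and 1132 CPM in Sd3 against 1034 and 1049 CPM in Sd2 and 722 and 709 CPM in Sd4. Ccdc175 had 1021 and 1098 CPM against 778 and 850 CPM in Sd2 and 678 and 735 CPM in Sd4. Tekt2 had 977 and 986 CPM against 667 and 685 CPM in Sd2 and 844 and 816 CPM in Sd4. For these 4 genes the level in Sd3 was above that in both neighbours by less than for Cytl1 and Ces5a.

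Fsip2, a protein that interacts with the fibrous sheath, had 1125 and 1281 CPM in Sd3 against 862 and 1035 CPM in Sd2 and 796 and 873 CPM in Sd4. Cep290, of the ciliary transition zone, had 1001 and 1117 CPM against 480 and 516 CPM in Sd2 and 993 and 1066 CPM in Sd4, so that Sd3 and Sd4 were nearly level. Mpc2, a subunit of the mitochondrial pyruvate carrier, had 1309 and 1400 CPM in Sd3, and its log2 ratio to Sd4 (0.11 and 0.15) was below the median of all genes. Dnajc15, a mitochondrial J protein, had 1296 and 1301 CPM, Pdcd5 1099 and 1102 CPM and BC048502 1029 and 1076 CPM.

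The most abundant transcripts of Sd3 among the named rows were not specific to it. Pabpc1, the cytoplasmic poly(A)-binding protein, had 7177 CPM in WT and 7067 CPM in KO, the testis lactate dehydrogenase Ldhc 6632 and 6415 CPM, Meig1, needed for the manchette and the tail, 6009 and 5628 CPM, and the ubiquitin gene Ubb 5206 and 4992 CPM. Each had a higher level in Sd2 and a lower one in Sd4. These 4 genes were highest in Sc2 or Sd1.

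Transcripts of the meiotic divisions were lower in Sd3 than in Sd2. The 14 readable genes had a median log2 ratio to Sd2 of -1.01 in WT and -0.91 in KO, with 6 of 14 past 2-fold lower (5.02% of all genes), and 13 of 14 were 2-fold higher in Sd3 than in Sd4 and 1 was 2-fold lower (16.5% and 16.4% of all genes). Their sum was 2354, 1361 and 584 CPM in Sd2, Sd3 and Sd4 of WT and 2391, 1366 and 567 CPM in KO. Ccna1, the meiotic cyclin A, had 169 CPM in WT (157 to 180) and 161 CPM in KO (152 to 170) in Sd3, against 363 and 346 CPM in Sd2 and 46.1 and 35.1 CPM in Sd4. The kinase Aurka had 88.8 and 78.6 CPM against 281 and 271 CPM in Sd2 and 24.9 and 16.2 CPM in Sd4. Bub1, a spindle checkpoint kinase, differed in being slightly higher in Sd3 (121 and 146 CPM) than in Sd2 (99.4 and 134 CPM).

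Genes of the meiotic prophase went both ways, much as all genes did. Of the 19 readable genes 14 could be set against Sd2, and 6 were higher and 8 lower in both libraries. Of all 4202 genes read against Sd2, 1595 were higher and 2338 lower. Sycp3, of the synaptonemal complex, had 195, 66.5 and 20.3 CPM in Sd2, Sd3 and Sd4 of WT and 220, 86.7 and 23.2 CPM in KO. Syce3, also of that complex, had 425 and 381 CPM in Sd3, more than in Sd2 (255 and 228 CPM) and in Sd4 (364 and 327 CPM). Smc1b, the meiotic cohesin, was nearly level at 593 and 643 CPM in Sd3. Syce2 was higher in Sd4 (343 and 361 CPM) than in Sd3 (113 and 115 CPM).

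Acrosome transcripts made up 1.89% of the WT and 1.92% of the KO UMIs in Sd3. Of the 32 genes of the acrosomal matrix and membrane, 18 were 2-fold higher in Sd3 than in Sd2 and none was 2-fold lower (17.1% and 5.02% of all genes). By any ratio, 20 were higher and 12 lower in both libraries, and the summed level was 16398 and 18942 CPM in Sd2 and Sd3 of WT and 16746 and 19182 CPM in KO. The median log2 ratio to Sd2 was 1.21 in WT and 1.33 in KO. Against Sd4 it was 0.11 and 0.16, and it became -0.26 with the all-gene median subtracted, with 17 genes higher and 15 lower in both libraries. The list thus stood closer to Sd4 than to Sd2. Of the 32 genes, 5 had their highest level of the 13 clusters in Sd3, where 6.6% of all genes did.

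Acrv1, the intra-acrosomal protein SP-10, had 251, 679 and 885 CPM in Sd2, Sd3 and Sd4 of WT and 276, 706 and 866 CPM in KO. Spaca1, an acrosomal membrane protein, had 218, 553 and 759 CPM in WT and 207, 554 and 730 CPM in KO. The lysozyme-like gene Lyzl1 had 604 and 610 CPM in Sd3 against 122 and 105 CPM in Sd2. Already present in Sd2 were Crisp2, Spink2 and the chaperone Clgn, whose levels in Sd3 (2635 and 2817, 2500 and 2530, and 1631 and 1852 CPM) were below those in Sd2 (3103 and 3215, 3218 and 3210, and 2277 and 2647 CPM).

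Genes tied to the zona pellucida did not share one course. Zp3r, an acrosomal zona-binding protein, had 82.6, 205 and 192 CPM in Sd2, Sd3 and Sd4 of WT and 70.5, 182 and 166 CPM in KO. Spam1, the sperm hyaluronidase, had 33.2, 166 and 139 CPM in WT and 48.0, 193 and 134 CPM in KO. Zpbp2, by contrast, was highest before, with 935, 679 and 260 CPM in WT and 1046, 759 and 292 CPM in KO. Calr3, a testis calreticulin, was still low in Sd3 (19.3 and 16.8 CPM) and had 318 and 328 CPM in Sd4. Izumo1, needed for fusion with the egg, had 152 and 161 CPM in Sd3 against 63.6 and 50.3 CPM in Sd2 and 229 and 250 CPM in Sd4.

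Genes of acrosome formation and Golgi traffic differed little from Sd2. Of 14, 1 was 2-fold higher and none 2-fold lower in Sd3 than in Sd2 (17.1% and 5.02% of all genes), and the median ratio was -0.24 and -0.29. That 1 gene was Fam209, with 263, 934 and 1727 CPM in Sd2, Sd3 and Sd4 of WT and 254, 866 and 1655 CPM in KO. Spata16 had 476 and 542 CPM in Sd3, below Sd2 (714 and 778 CPM) and above Sd4 (252 and 260 CPM).

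Most genes of the perinuclear theca, the sheath between acrosome and nucleus, were on a rising course. Of its 18 genes 13 lay on that course, against 17.3% of all genes. The summed level of the list took another course, with 9827, 7943 and 8992 CPM in Sd2, Sd3 and Sd4 of WT and 9612, 8106 and 9135 CPM in KO. Cylc2, a cylicin, had 183, 713 and 988 CPM in Sd2, Sd3 and Sd4 of WT and 214, 721 and 1005 CPM in KO. The actin-like Actl7a had 281 and 241 CPM in Sd3 against 90.6 and 82.4 CPM in Sd2. Ccin, or calicin, had only 24.8 and 27.1 CPM in Sd3, but 287 and 293 CPM in Sd4. The theca genes thus differed in how much of their Sd4 level they had in Sd3, which was most of it for Cylc2 and little for Ccin.

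**Figure D3:**
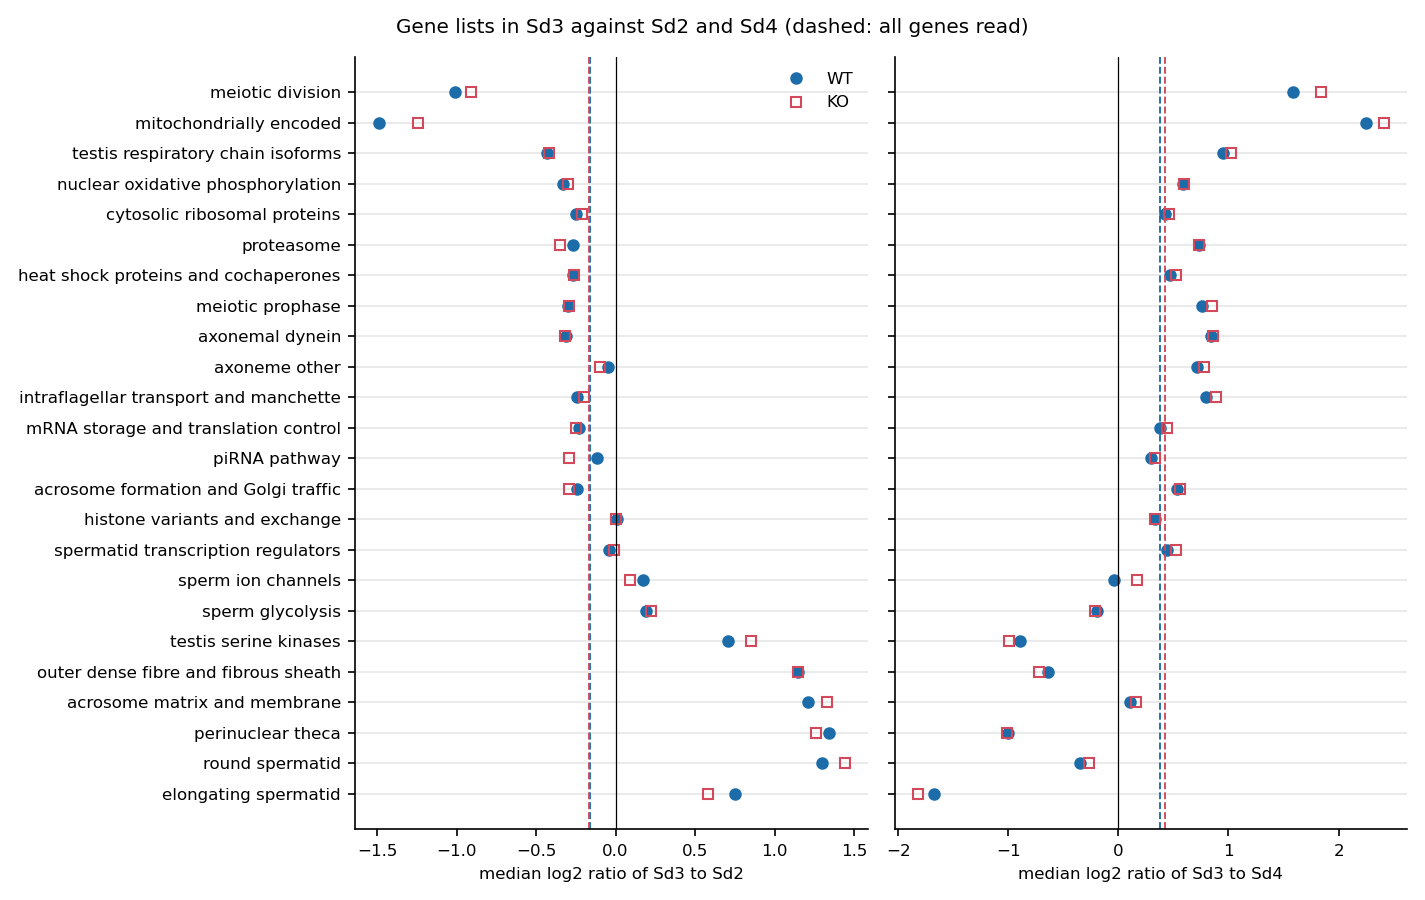
Median log2 ratio of Sd3 to Sd2 (left) and to Sd4 (right) for 24 gene lists in WT (filled circles) and KO (open squares), with the median of all genes read as dashed lines (-0.16 and -0.17 on the left, 0.38 and 0.42 on the right). Meiotic division and mitochondrially encoded genes lie at the left end against Sd2 and at the right end against Sd4, and acrosome, theca and sheath genes lie at the right end against Sd2.

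Axoneme genes other than dyneins took 2.80% and 2.83% of the UMIs of Sd3. Of 51 genes, 47 were higher in Sd3 than in Sd4 in both libraries, where 2711 of all 4351 genes read were. Of the 47, 15 were 2-fold higher (16.5% of all genes). The highest level of the 13 clusters was in Sd3 for 15 of 51, where it was for 6.6% of all genes. Their median log2 ratio to Sd2 was -0.05 in WT and -0.10 in KO and turned to 0.09 with the all-gene median subtracted. By count 18 were higher and 29 lower than in Sd2 in both libraries, where 1595 and 2338 of all 4202 genes were. None lay on the rising course and 15 on the falling one (17.3% and 24% of all genes). Their summed level fell from 31434 CPM in Sd2 to 28026 CPM in Sd3 of WT and from 31885 to 28267 CPM in KO. Spag6, of the central pair, had 247, 544 and 323 CPM in Sd2, Sd3 and Sd4 of WT and 244, 505 and 275 CPM in KO. Cfap100 had 104 and 106 CPM in Sd3 against 13.9 and 15.4 CPM in Sd2. The radial spoke gene Rsph1 was lower, at 713 and 710 CPM in Sd3 against 1466 and 1558 CPM in Sd2.

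Of 15 axonemal dynein genes read against Sd2, 3 were 2-fold higher and 2 were 2-fold lower, where 17.1% and 5.02% of all genes were. Their median log2 ratio to Sd2 was -0.31 in WT and -0.32 in KO, where all genes had -0.16 and -0.17. To Sd4 it was 0.84 and 0.86, where all genes had 0.38 and 0.42. The heavy chain Dnah8 had 557, 263 and 85.4 CPM in Sd2, Sd3 and Sd4 of WT and 666, 317 and 95.7 CPM in KO. Another heavy chain, Dnah3, had 62.8, 179 and 172 CPM in WT and 77.6, 193 and 190 CPM in KO. These heavy chains differed from Sd2 in opposite directions in both libraries. Tctex1d1 was late, with 44.1 and 49.0 CPM in Sd3 and 265 and 287 CPM in Sd4.

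Of the 29 genes of intraflagellar transport and the manchette, 5 were highest of the 13 clusters in Sd3 (6.6% of all genes were), among them Cep290 and Ift43 (707 and 710 CPM). Of 28 read against Sd2, 8 were higher and 17 lower in both libraries, where 1595 and 2338 of all 4202 genes were. Against Sd4, 24 of 28 were higher and 3 lower, where 2711 and 1485 of all 4351 genes were. The median log2 ratio was -0.24 and -0.20 to Sd2 and 0.80 and 0.89 to Sd4. Kifap3, the kinesin-associated protein, went against most of the list, with 657 and 671 CPM in Sd3 against 265 and 279 CPM in Sd2. Ift172 was late, with 44.7 and 42.8 CPM in Sd3 and 224 and 253 CPM in Sd4. Hook1, a manchette linker, likewise had 252 and 310 CPM in Sd3 against 733 and 958 CPM in Sd4.

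Genes of the outer parts of the tail were mostly between their Sd2 and Sd4 levels. Of 27 genes of the outer dense fibres and fibrous sheath read against Sd2, 15 were 2-fold higher (17.1% of all genes), and 16 of 28 lay on the rising course (17.3% of all genes). The median log2 ratio was 1.15 in both libraries against Sd2, and -0.64 and -0.72 against Sd4. Odf3 had 42.0, 333 and 640 CPM in Sd2, Sd3 and Sd4 of WT and 44.1, 312 and 613 CPM in KO. Ropn1, a sheath-associated protein, had 444, 1633 and 2986 CPM in WT and 437, 1570 and 3006 CPM in KO. Akap4, the main scaffold of the fibrous sheath, was only at 165 and 193 CPM in Sd3.

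Channels and kinases of the sperm varied one by one. Efcab9, a calcium sensor of the CatSper channel, had 1127 and 1168 CPM in Sd3 against 516 and 494 CPM in Sd2 and 1176 CPM in Sd4 of both libraries. Catsper3, a pore subunit, had 166 and 151 CPM against 35.8 and 32.4 CPM in Sd2. It was found in 70.0% and 69.7% of Sd3 cells and in 6.39% and 3.96% of Sg cells. Catsperz was lower than in Sd2 (1124 and 1112 CPM in Sd3, 1471 and 1416 CPM in Sd2). Of the 12 testis serine kinase genes, 5 were 2-fold higher in Sd3 than in Sd2 (17.1% of all genes), among them Tssk2 (438 and 375 CPM against 131 and 119 CPM).

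Among the transcription regulators, Crem, the cAMP-responsive activator of spermatid genes, had its highest level in Sd3. It had 422, 637 and 537 CPM in Sd2, Sd3 and Sd4 of WT and 446, 608 and 498 CPM in KO. Sox5 had 638 and 589 CPM in Sd3, against 143 and 153 CPM in Sd2 and 791 and 749 CPM in Sd4. Fhl5, a coactivator of Crem, was late, with 211 and 186 CPM in Sd3 and 790 and 819 CPM in Sd4. Tbpl1, a TBP-like factor, was lower than in Sd2 (645 and 634 CPM in Sd3, 909 and 865 CPM in Sd2). The master regulator of motile cilia Foxj1 was low at 64.8 and 53.9 CPM and had its maximum of the 13 clusters in Sd3 in both libraries. The list as a whole, 19 genes, had a median log2 ratio to Sd2 of -0.04 and -0.01, which turned to 0.14 with the all-gene median subtracted.

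Chromatin genes of the histone to protamine exchange were split. Hils1, a spermatid linker histone, had 309, 1192 and 2588 CPM in Sd2, Sd3 and Sd4 of WT and 274, 1158 and 2699 CPM in KO. Chd5, a remodeller needed for that exchange, had 263 and 258 CPM in Sd3 against 82.6 and 79.4 CPM in Sd2. H1fnt and H2afb1 were low in Sd3 (89.2 and 76.5, and 72.6 and 82.7 CPM) and had over 500 CPM in Sd4. H2afx, the histone of meiotic sex body signalling, was at 18.7 and 22.3 CPM against 78.2 and 79.2 CPM in Sd2. Of 21 genes read, 10 were higher and 10 lower than in Sd2 in both libraries, where 1595 and 2338 of all 4202 genes were.

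Transcripts of Prm1, Prm2 and Tnp1 were counted in Sd3 but, below their level in Sg of WT, could not be told from background. Prm1 had 3828 CPM in WT and 3773 CPM in KO, against 3759 and 4194 CPM in Sd2 and 13515 and 16694 CPM in Sd4. In Sg, which should lack it, Prm1 had 21336 CPM in WT and was found in 100% of cells, against 99.8% in Sd3. The Sg level was also above the Sd3 level for Tnp1 (1227 and 1163 CPM in Sd3, 5600 CPM in Sg of WT) and Prm2 (1551 and 1712 CPM, 7787 CPM in Sg of WT). Hmgb4, a late chromatin protein, was also below Sg (847 CPM in Sd3 and 1015 CPM in Sg of WT). Of 6 protamine and transition protein genes, 4 were higher than in Sd2 in both libraries, 2 of them 2-fold, and none was lower. In the elongating spermatid list 19 of 21 genes read were higher and none lower, where 1595 and 2338 of all 4202 genes were. Of the 19, 9 were 2-fold higher (17.1% of all genes). The list sum rose from 10498 CPM in Sd2 to 16972 CPM in Sd3 of WT and from 11302 to 16742 CPM in KO. Against Sd4 all 22 genes of the list were lower in Sd3, 17 of them 2-fold (16.4% of all genes).

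The genes of mitochondrial respiration were lower than in Sd2 nearly throughout. Of 65 nuclear genes of oxidative phosphorylation read, 61 were lower in Sd3 than in Sd2 in both libraries and 63 were higher than in Sd4. Of all genes, 2338 of 4202 were lower than in Sd2 and 2711 of 4351 higher than in Sd4. Only 1 of the 65 was 2-fold lower than in Sd2 (5.02% of all genes). Their median log2 ratio to Sd2 was -0.33 in WT and -0.30 in KO, where all genes had -0.16 and -0.17. To Sd4 it was 0.59 and 0.60, where all genes had 0.38 and 0.42. The testis isoform Cox8c had 3259, 2016 and 807 CPM in Sd2, Sd3 and Sd4 of WT and 3059, 1999 and 720 CPM in KO. The mitochondrially encoded transcripts moved further, with medians of -1.49 and -1.24 against Sd2 and 2.25 and 2.41 against Sd4. mt-Cytb had 503, 184 and 34.7 CPM in WT and 424, 186 and 34.8 CPM in KO, whereas the ribosomal RNA mt-Rnr2 was at 1785, 1591 and 1217 CPM in WT and 2239, 2166 and 1722 CPM in KO.

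Housekeeping lists differed in how near they were to the median of all genes, which was -0.16 and -0.17 against Sd2. Of 71 cytosolic ribosomal protein genes read, 68 were lower in Sd3 than in Sd2 in both libraries, yet their median of -0.25 and -0.21 was close to that of all genes. The heat shock list had -0.27 and -0.26. The proteasome list had -0.27 and -0.35 against Sd2, and 0.73 in both libraries against Sd4, where all genes had 0.38 and 0.42. Of its 31 genes 15 lay on the falling course, against 24% of all genes. Psma6, an alpha subunit of the proteasome, had 660 and 624 CPM in Sd3 against 290 and 311 CPM in Sd2. Psme4, an activator of the spermatid proteasome, had its maximum of the 13 clusters in Sd3 in both libraries (482 and 679 CPM). Of 10 piRNA genes read, 3 were higher and 7 lower than in Sd2 in both libraries (1595 and 2338 of all 4202 genes). Their median was -0.12 and -0.29. Gtsf1l, which went against most of the list, had 493 and 486 CPM in Sd3 against 173 and 150 CPM in Sd2. Piwil1, the pachytene PIWI protein, was at 5.08 and 6.52 CPM. Of 25 genes of mRNA storage and translation control read, 5 were higher and 19 lower than in Sd2 in both libraries. Of all 4202 genes read, 1595 were higher and 2338 lower. The median of the list was -0.23 and -0.25, near that of all genes. Eif4g1, a translation initiation scaffold, had 94.3 and 98.6 CPM in Sd3 against 15.3 and 22.1 CPM in Sd2 and 378 and 418 CPM in Sd4.

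X-linked genes differed more between Sd3 and its neighbours than autosomal genes did. The annotation was matched for 5371 symbols, 149 of them X-linked. X-linked genes took 0.883% of the UMIs of those symbols in Sd3 of WT (exact binomial interval 0.874 to 0.892) and 0.832% in KO (0.825 to 0.839). They took 0.477% and 0.452% in Sd2, 1.80% and 1.78% in Sd4, and 0.133% and 0.119% in Sd1. Of 87 X-linked genes read against Sd2, 37 were 2-fold higher in Sd3 (42.5%) and none was 2-fold lower, where 656 of 4035 autosomal genes (16.3%) were 2-fold higher. Against Sd4, 45 of 100 were 2-fold lower (45%), where 15.7% of autosomal genes were. The median log2 ratio of X-linked genes was 0.94 and 0.99 against Sd2 and -0.95 and -1.02 against Sd4. The X-linked groups and lists were looked at after the first results had been seen.

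The X-linked genes with most UMIs in Sd3 are named here. Tsga8, a nuclear protein gene of round spermatids, had 457, 814 and 1114 CPM in Sd2, Sd3 and Sd4 of WT and 382, 727 and 988 CPM in KO. Cypt1, a cysteine-rich perinuclear theca gene, had 112, 351 and 914 CPM in WT and 95.7, 323 and 911 CPM in KO. The steepest was 4933436I01Rik, with 20.5, 153 and 563 CPM in WT and 19.1, 168 and 561 CPM in KO. Not all followed, since Gm595 had 263, 309 and 225 CPM in WT and 299, 347 and 240 CPM in KO, and 4933428M09Rik had 213 and 212 CPM in Sd3 against 209 and 236 CPM in Sd2. Of the 12 genes looked at, 10 had a higher level in Sd4 than in Sd3 in both libraries, where 1485 of all 4351 genes read did.

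The 9 readable Y-linked genes, all with predicted names, had their highest summed share of the spermatid clusters in Sd3, 0.0105% in WT (0.00954 to 0.0115) and 0.00902% in KO (0.0083 to 0.00979). In Sd2 the share was 0.00667% and 0.00592% and in Sd4 0.00809% and 0.00673%. Gm20810 was the most abundant, with 16.7 and 14.9 CPM in Sd3 from 82 and 114 UMIs. Multicopy Y-linked genes share near-identical copies, so that their counts are uncertain.

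**Figure D4:**
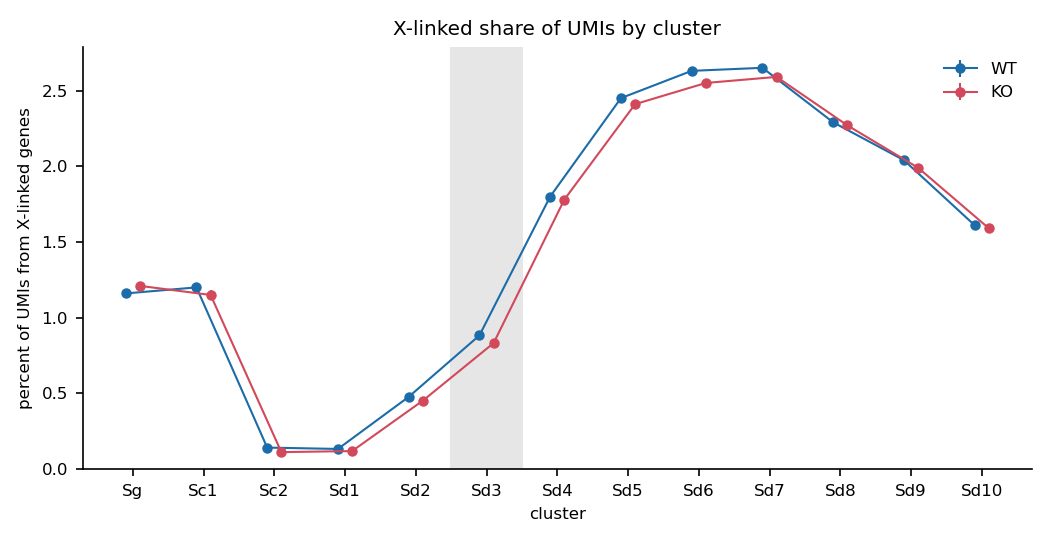
Percent of UMIs from 149 X-linked genes (vertical axis, from 0) in each of the 13 clusters (horizontal axis) for WT and KO, with exact binomial 95% intervals that are smaller than most points. The share in Sd3 (grey band) was 0.883% in WT and 0.832% in KO, between Sd2 (0.477% and 0.452%) and Sd4 (1.80% and 1.78%).

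Transcripts annotated as long noncoding RNA or still to be experimentally checked took 5.55% of the UMIs of matched symbols in Sd3 of WT and 5.35% in KO, over 726 genes. In Sd2 the share was 4.85% and 4.66% and in Sd4 6.64% and 6.46%. Of 436 such genes read against Sd2, 155 were 2-fold higher in Sd3 (35.6%), and 7 were 2-fold lower (1.61%), against 17.1% and 5.02% of all genes. Nell1os, named as an opposite-strand transcript of Nell1, had 38.2 and 29.6 CPM in Sd3 against 3.65 and 2.83 CPM in Sd2.

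Cells of Sd3 differed among themselves along the same axis. In thinned cells the 211 genes 2-fold lower in Sd3 than in Sd2 took a median of 0.9% of the UMIs of a Sd3 cell in WT and 1% in KO, with the middle 80% of cells between 0.4% and 1.59% in WT and between 0.467% and 1.77% in KO. In Sd2 the medians were 2.7% and 2.8%, and in Sd4 0.3% in both libraries. The genes 2-fold lower in Sd3 than in Sd4, without protamines and transition proteins (709 genes), took 4.57% in WT and 4.4% in KO, against 1.6% and 1.67% in Sd2 and 15.6% and 17.9% in Sd4. Since both groups were chosen from these clusters, the medians are a description. None of the Sd3 cells reached the Sd4 median of the second group, and 0.397% of WT and 0.711% of KO cells exceeded the Sd2 median of the first.

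Across single cells of Sd3, the shares of both groups had r = -0.66 in WT (504 cells) and -0.61 in KO (703 cells). The cells of 1 library share its suspension and depth, and the shares of 1 cell are parts of the same total. The X-linked share of a thinned cell had a median of 0.7% in WT and 0.667% in KO, against 0.367% in Sd2 and 1.5% in Sd4 of both libraries. It was above the Sd2 median in 96.8% of WT and 95.2% of KO cells of Sd3, and above the Sd4 median in 0.595% and 0%.

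**Figure D5:**
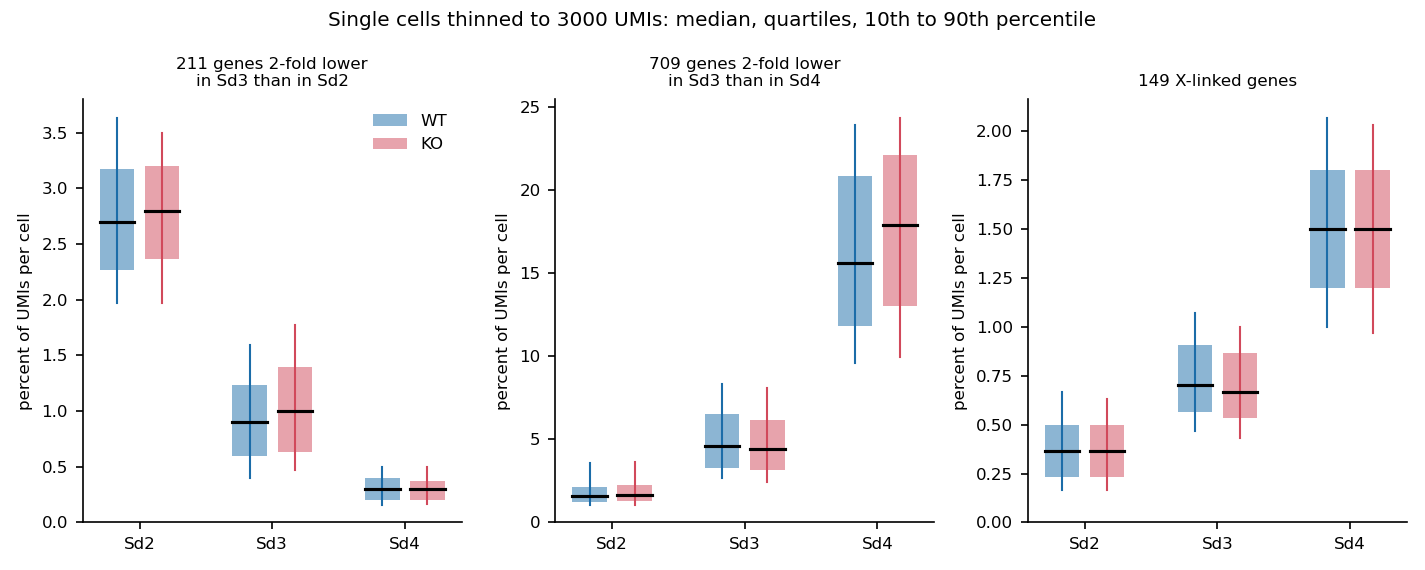
Percent of a cell's UMIs (vertical axes, from 0) from 3 gene groups in cells of Sd2, Sd3 and Sd4 thinned to 3000 UMIs, with WT in blue and KO in red. Black lines are medians, boxes quartiles and thin lines the 10th to 90th percentile over cells: Sd3 lay between its neighbours for all 3 groups, with medians of 0.9% and 1% for the genes lower than in Sd2 and 0.7% and 0.667% for X-linked genes.

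The question of the study, what the loss of Tex13a does to the transcriptome, was looked at within Sd3. The symbol Tex13a could stand for 7 rows of the matrix. One of these, with 2295 UMIs in the WT library and 0 in the KO library, had 151 UMIs in Sd3 of WT (30.7 CPM, 26 to 36), between Sd2 (12.4 CPM) and Sd4 (52.7 CPM). It was found in 107 of 504 WT cells of Sd3 (21.2%, 17.7 to 25.1). In KO the count of 0 in Sd3 allows up to 0.391 CPM (3 counts). As the row was picked by its absence in KO, this does not check the labels.

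Profiles of Sd3 were close in both libraries, with r = 0.995 across 4973 genes. The median log2 ratio of KO to WT was -0.01 and the median absolute ratio 0.12, against 0.14 in Sd2 and Sd4. Of 4389 genes with at least 50 UMIs over both libraries, 7 were 2-fold higher in KO (0.159%) and 2 were 2-fold lower (0.0456%). In the late cluster Sd10 these numbers were 57 and 13 of 2141 genes, from fewer UMIs (1252689 in WT and 1762193 in KO). With 1 library per genotype these are differences between libraries. Without a minimum of UMIs the numbers in Sd3 were 174 and 191, and with at least 200 UMIs both were 0. The mean of single-cell CPM gave 16 and 9, and leaving out the 5% of cells with most UMIs gave 12 and 4.

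The largest difference was that of 1700030C10Rik, with 1 UMI in Sd3 of WT and 127 in KO (0.203 and 16.6 CPM, log2 ratio 5.88, 3.84 to 11.66). It was higher in KO in all 13 clusters. Gtf3c4, a subunit of the RNA polymerase III factor TFIIIC, had 26 and 103 UMIs (5.28 and 13.4 CPM, log2 ratio 1.33, 0.71 to 2.03) and was higher in KO in 12 of 13 clusters. The others past 2-fold were Prss37 (26 and 87 UMIs), Gm21056 (18 and 72), Gm26596 (7 and 43), Dydc2 (14 and 46) and Usp3 (15 and 49). Prss37 was higher in KO in 3 of 13 clusters and lower in 9. All of these but Prss37 were named after their values had been seen. Zzz3 (14.2 and 26.2 CPM) and Gm136 (5.89 and 11 CPM) were the next higher in KO among genes with at least 100 UMIs.

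Both genes that were 2-fold lower in KO are known from other cell types. Ctsl, a cathepsin of Sertoli cells, had 51 UMIs in WT and 17 in KO, and the haemoglobin gene Hbb-bs 47 and 17. The summed Sertoli and red blood cell genes in Sd3 were likewise lower in KO (22.2 against 6.65 CPM, and 24.2 against 5.48 CPM), and their part in the result was not tested. Next came Ptma (24.4 and 13.3 CPM, log2 ratio -0.87), Chchd10 (15.2 and 8.74 CPM), Hmgb2 (14.0 and 8.22 CPM) and Dazl (22.2 and 13.2 CPM). Ptma, Hmgb2 and Dazl had 2292, 1183 and 1746 CPM in Sg of WT, a cluster that made up 4.24% of the WT and 2.79% of the KO library, and whether free RNA of those cells adds to the counts was not tested.

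Gm20878 was the lower gene in KO with a high level. It had 312 CPM in WT (297 to 328) and 182 CPM in KO (172 to 192) in Sd3, a log2 ratio of -0.78 (-0.89 to -0.67). It was lower in KO in all 13 clusters, by log2 ratios from -1.76 to -0.10, and had its maximum in Sd3 in both libraries. It is a predicted gene on chromosome 4 (41941572 to 41943124, GRCm38), and its count is uncertain where near-identical copies share reads.

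Among lists, the intraflagellar transport genes of Sd3 were higher in KO in 25 of 28 (median 0.14). The summed level of that list was also higher in KO in Sd2 (5577 CPM in WT and 6118 CPM in KO). It was so in Sd4 as well (5332 and 5718 CPM), but not in Sd10 (3120 and 3058 CPM). The cytosolic ribosomal protein genes of Sd3 were lower in KO in 64 of 71 (median -0.13). Mitochondrially encoded genes were higher in 7 of 8 (median 0.26), beside a median mitochondrial share per cell of 0.351% in KO and 0.256% in WT. The median of that share was higher in KO in every cluster. All genes read were higher in KO in 2097 and lower in 2292. No member of these 3 lists was past 2-fold. For the round spermatid list the median was -0.08 and for the acrosomal matrix and membrane list -0.01. Genes of acrosome formation and Golgi traffic were higher in KO in 13 of 14 (median 0.11), and their summed level was higher in KO in every cluster. Nuclear genes of oxidative phosphorylation were lower in 50 of 65 (median -0.04). The proteasome activator Psme4 and the histone reader Phf7 were higher in KO (482 and 679 CPM, and 1603 and 2181 CPM), with log2 ratios of 0.49 and 0.44.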

How the data were processed

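Single cells from digested testes of both genotypes were captured in microwells and their polyA RNA was sequenced, in 1 library per genotype. The authors trimmed reads with fastp 1, aligned them to mm10 with STAR 2.5.3a, assigned them to genes with featureCounts 1.6.2 and deposited UMI counts per gene and cell, with no normalization. They filtered and clustered the cells of both libraries together in Seurat 3.2.3, and deposited the cluster, the library and the percentage of mitochondrial UMIs of each cell. The score columns that the authors deposited hold totals of sctransform-corrected counts and were not used. The limits of their cell filter and the treatment of doublets are not given in the sources used here.

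The matrix has 26758 rows and the symbol list 25065 lines. Symbols were tied to rows through 30 mitochondrial rows, chosen so that their sums gave the deposited mitochondrial percentage in 12408 of 12408 cells. Since the rows were chosen by that sum, the match is no check of the naming. Between these rows the naming rests on the assumption that only rows seen in under 5 cells lack a symbol. In this way 5476 symbols had 1 possible row, with 86.87% of the UMIs, and the other rows were not named.

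UMIs were added per library and cluster (Python 3.11.15, numpy 2.4.6, scipy 1.17.1, pandas 2.3.3). Depth in Sd3 was 4919774 UMIs in WT and 7668479 in KO. Intervals are exact Poisson (CPM) or exact binomial (shares, ratios) at 95%. No test was possible with 1 library per genotype. Named genes were the 10 highest and 10 lowest ratios of Sd3 to Sd2 and to Sd4, the 12 highest and 6 lowest in Sd3, the 10 most abundant with their maximum in Sd3, the 5 highest and 5 lowest ratios of KO to WT (each with at least 100 UMIs), the 5 most abundant, the 4 most abundant members of each list with those past 2-fold, and the study's markers. A few genes that this rule names are not reported here. Members and lists were chosen with earlier results of these data known. The calculation was tested on simulated counts. Promoters came from RefSeq (GRCm38.p6) and gene positions from GENCODE.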

Additional observations from a re-analysis of the deposited data

Results flagged for a closer look

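For 3 of 373 genes looked at, the ratio of Sd3 to Sd2 had opposite directions in the 2 libraries, each by more than counting error. With 1 library per genotype the difference was not tested. Prss37, a gene of a testis serine protease-like protein, had a log2 ratio of -1.25 in WT and 0.75 in KO, from 12.8 and 5.28 CPM in Sd2 and Sd3 of WT and 6.73 and 11.3 CPM in KO. Its level in Sd4 was far higher, 202 CPM in WT and 232 CPM in KO.

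The haemoglobin genes of red blood cells were the other such genes. Hbb-bs had a log2 ratio of 1.85 in WT and -4.26 in KO, with 2.56 and 9.55 CPM in Sd2 and Sd3 of WT and 43.9 and 2.22 CPM in KO. Hba-a2 had 2.34 in WT and -4.68 in KO, with 1.46 and 7.93 CPM in WT and 31.9 and 1.17 CPM in KO.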

How the results depend on the processing

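No paired analysis was possible because there was 1 library per genotype and the labels give no replicate numbers. Of the 72 recomputed counts of genes, 48 stayed within 1.5 times the reported count and 24 did not. Scaling to totals without mitochondrial genes moved none. With the all-gene median subtracted, 386 genes were 2-fold higher in Sd3 than in Sd4 and 85 were highest in Sd3. With at least 200 UMIs, 126 genes were 2-fold lower in Sd3 than in Sd2, 34 were lowest in Sd3, and 0 were 2-fold higher and 0 lower in KO. Without a minimum these counts were 325, 98, 174 and 191. A prior of 10 UMIs left 4 genes 2-fold higher in KO. The mean of single-cell CPM gave 16 higher and 9 lower in KO, and leaving out the 5% of cells with most UMIs, taken as possible doublets, gave 12 and 4. In thinned cells 4 were lower in KO. Where symbols were named without the assumption on rows, which leaves 2648 symbols, 399 and 118 genes were 2-fold higher and lower than in Sd2, 374 and 377 than in Sd4, 74 were highest and 30 lowest in Sd3, and 0 and 1 were higher and lower in KO. Fewer genes are read under the stricter minimum and without the assumption, and for the other settings the cause was not tested. Of the 648 list medians, 2 were classed as reversed and 29 as moved. The 2 were histone variants (-0.07) and the piRNA pathway (-0.08), both against Sd4 with the all-gene median subtracted. Smaller medians that changed sign under that setting were not classed as reversed. Among these were the acrosomal matrix and membrane against Sd4, and the axoneme other than dyneins and the transcription regulators against Sd2. At this depth a count of 0 in Sd3 of KO allows up to 0.391 CPM.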
